A study of Mus musculus with 12 samples.

Results

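Cells under stress can hold back mTORC1, the kinase complex that couples nutrients and growth signals to biosynthesis, through the products of the sestrin genes and Ddit4. The 4 genes, Sesn1, Sesn2, Sesn3 and Ddit4, were chosen by name from the 24421 genes listed in a count table of mouse embryonic fibroblasts (MEFs). All 4 passed the filter on low counts and were among the 15220 genes tested. RNA sequencing had been carried out on 12 libraries, 3 in each of 4 groups, to ask how the transcription factors TFEB and TFE3 contribute to the response to DNA damage. Null MEFs are taken to be the control genotype that the paper of the study calls WT. The labels do not define the name Null and list only 1 other genotype. The TFEB/TFE3 DKO MEFs were made from MEFs with CRISPR to inactivate both factors. The Null control and DKO control groups received no etoposide (the labels call them untreated and the methods describe a DMSO vehicle), and the Null etoposide and DKO etoposide groups were kept for 8 hr in 100 µM etoposide, which traps topoisomerase II on DNA and leaves strand breaks.

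Sestrins bind the GATOR2 complex and so keep it from holding back GATOR1, the brake on the Rag GTPases that bring mTORC1 to the lysosome, and leucine releases Sesn1 and Sesn2 proteins from GATOR2. Ddit4 encodes REDD1, which acts through the TSC complex to switch off Rheb, the direct activator of mTORC1. In fibroblasts and many other cells Sesn1 and Sesn2 are known p53 targets, Sesn2 also answers to ATF4 and NRF2, Sesn3 to FOXO factors, and Ddit4 to hypoxia, glucocorticoids, ATF4 and p53, while TFEB and TFE3 are themselves held in the cytosol when mTORC1 phosphorylates them.

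Total counts on genes lay between 66956083 and 83970210 in the 3 Null control libraries and between 66749645 and 104120871 in the DKO control libraries. They lay between 63286195 and 76125320 after etoposide in Null MEFs and between 45577023 and 94388705 in DKO MEFs. Levels are given as CPM, in which counts are divided by a TMM-scaled library size. The knockout targets were read first. Tfeb was at 38.9, 39.2 and 42.1 CPM in Null control, 4.60, 6.09 and 4.68 in DKO control, 11.4, 10.2 and 10.4 in Null etoposide and 1.92, 1.61 and 2.20 in DKO etoposide. Each DKO library lay below each Null library of the same treatment. Tfe3 was at 115, 109.9 and 114 CPM in Null control, 94.1, 93.1 and 91.0 in DKO control, 68.5, 69.6 and 68.1 in Null etoposide and 70.7, 71.2 and 63.4 in DKO etoposide. Its transcript was therefore still present in DKO MEFs, and the genotypes overlapped after etoposide. These counts do not show by themselves that TFE3 was lost in DKO MEFs.

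Sesn2 (chr4:132492032-132510501, minus strand, GRCm38, 1 annotated transcript), the sestrin best known as a leucine sensor, was the most abundant sestrin. It was at 191, 188 and 195 CPM in Null control and at 167, 158 and 164 CPM in Null etoposide. In DKO MEFs it was at 109, 115 and 107 CPM in control and at 92.1, 96.5 and 86.0 CPM in etoposide. In TMM-scaled CPM the groups formed 4 separate bands, with both DKO bands under both Null bands and each etoposide band under the control band of its genotype. Etoposide lowered Sesn2, with a log2 fold change of -0.23 in Null MEFs (standard error 0.04, edgeR adjusted p = 6.86e-05, from its quasi-likelihood test after Benjamini-Hochberg adjustment). In DKO MEFs the log2 fold change was -0.27 (standard error 0.04, edgeR adjusted p = 2.01e-05). Neither fall passed the threshold of 0.05 when counts were scaled by library size alone, with log2 fold changes of -0.07 in Null MEFs and -0.00 in DKO MEFs (edgeR adjusted p = 0.155 and 0.997). The genotype difference was larger than the effect of etoposide, with Sesn2 1.73-fold lower in DKO MEFs in control (log2 fold change -0.79, standard error 0.04, edgeR adjusted p = 2.04e-11). After etoposide it was 1.78-fold lower (log2 fold change -0.83, standard error 0.04, edgeR adjusted p = 8.90e-12). The response to etoposide itself differed between genotypes by -0.04 on the log2 scale, with a 95% interval from -0.17 to 0.09 and an edgeR adjusted p of 0.611.

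Sesn1 (chr10:41809935-41908424, plus strand, GRCm38, 3 annotated transcripts), the sestrin first described as a p53-induced gene, rose with etoposide. It was at 25.4, 23.4 and 24.7 CPM in Null control and at 42.2, 44.1 and 45.8 CPM in Null etoposide. In DKO MEFs it was at 20.1, 20.2 and 19.8 CPM in control and at 26.9, 25.7 and 24.8 CPM in etoposide. The Null etoposide libraries stood above all others, the DKO control libraries below all others, and the DKO etoposide libraries overlapped with those of Null control. The rise was 1.80-fold in Null MEFs (log2 fold change 0.84, standard error 0.05, edgeR adjusted p = 2.37e-11). It was 1.28-fold in DKO MEFs (log2 fold change 0.36, standard error 0.05, edgeR adjusted p = 5.56e-06), and the log2 value lay between 0.32 and 0.63 over the alternative settings. The test of the difference between these responses gave -0.48 on the log2 scale (95% interval -0.63 to -0.34, edgeR adjusted p = 1.40e-05), so the response of Sesn1 was smaller in DKO MEFs. Between genotypes, Sesn1 was lower in DKO MEFs in control, at -0.29 on the log2 scale (standard error 0.05, edgeR adjusted p = 6.56e-05). After etoposide the gap widened to -0.78 (standard error 0.05, edgeR adjusted p = 1.07e-10).

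A pair of starts is given for Sesn1 by RefSeq on GRCm38.p6, and the windows from 250 bases before to 50 bases after each are shown because the transcripts counted together under Sesn1 can come from either. The first window is chr10:41810324-41810623 and the second chr10:41887189-41887488, both on the plus strand, and capitals mark the matches to the motifs searched.
Sesn1 first window: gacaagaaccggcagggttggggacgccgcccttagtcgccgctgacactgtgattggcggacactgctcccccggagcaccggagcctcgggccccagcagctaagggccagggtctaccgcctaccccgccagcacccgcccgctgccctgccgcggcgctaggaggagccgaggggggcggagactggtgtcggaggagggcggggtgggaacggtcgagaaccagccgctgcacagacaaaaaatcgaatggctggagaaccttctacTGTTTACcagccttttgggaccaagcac
Sesn1 second window: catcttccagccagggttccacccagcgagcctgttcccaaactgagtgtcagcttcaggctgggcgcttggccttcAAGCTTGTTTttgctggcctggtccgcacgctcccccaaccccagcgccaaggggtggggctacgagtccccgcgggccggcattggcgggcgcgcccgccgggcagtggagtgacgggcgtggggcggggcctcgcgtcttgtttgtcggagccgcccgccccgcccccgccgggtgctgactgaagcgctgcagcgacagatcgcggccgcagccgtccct
The motifs were the E-box CACGTG and its longer form TCACGTGA, the ATF4 core TGATGNAA, the hypoxia element ACGTG (which lies within the E-box), the forkhead motif GTAAACA and the p53 consensus decamer, each on both strands. The first window held 1 forkhead match, 23 bases after the start, and the second 1 match to the p53 decamer, 173 bases before the start. Of the 32851 promoter windows in the RefSeq table, 3.65% held the forkhead motif and 8.36% the p53 decamer. The other shares were 7.15% for the E-box, 0.974% for the longer form, 3.97% for the ATF4 core and 19.6% for the hypoxia element.

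Sesn3 (chr9:14275067-14333101, plus strand, GRCm38, 7 annotated transcripts), the sestrin known as a FOXO target, was the least abundant of the 4 genes, with 606 to 1292 counts per library. It was at 14.3, 14.3 and 13.9 CPM in Null control and at 15.1, 14.1 and 16.6 CPM in Null etoposide. In DKO MEFs it was at 10.3, 12.2 and 10.6 CPM in control and at 12.3, 12.4 and 12.8 CPM in etoposide. The treatments overlapped in Null MEFs, came close without overlap in DKO MEFs, and the Null libraries lay above the DKO libraries throughout. For etoposide in Null MEFs the log2 fold change of 0.10 (95% interval -0.05 to 0.25) did not pass the threshold (edgeR adjusted p = 0.194). It lay between 0.03 and 0.15 with 1 library left out, and passed with library size alone (0.27, edgeR adjusted p = 0.00198) and with a filter at 1 CPM on average (0.19, edgeR adjusted p = 0.0225). In DKO MEFs it was 0.17 (95% interval 0.01 to 0.33, edgeR adjusted p = 0.0467). That call was lost in 10 of 15 alternative settings, among them the omission of DKO control replicate 1 or 3 or of any 1 DKO etoposide library. Over these settings the value lay between 0.10 and 0.45, the highest with library size alone. In control, Sesn3 was lower in DKO than in Null MEFs, at -0.35 on the log2 scale (standard error 0.07, edgeR adjusted p = 0.000439). After etoposide the value was -0.28 (standard error 0.07, edgeR adjusted p = 0.00196). The difference between the responses was 0.07 (95% interval -0.15 to 0.29, edgeR adjusted p = 0.606).

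Ddit4 (chr10:59949669-59951834, minus strand, GRCm38, 1 annotated transcript), the REDD1 gene, gave the widest range of the 4. It was at 182, 176 and 177 CPM in Null control and at 388, 395 and 404 CPM in Null etoposide. In DKO MEFs it was at 65.8, 64.7 and 68.1 CPM in control and at 119, 125 and 122 CPM in etoposide. No groups overlapped, and the DKO libraries stayed below the Null control libraries even after etoposide. Ddit4 rose 2.22-fold with etoposide in Null MEFs (log2 fold change 1.15, standard error 0.03, edgeR adjusted p = 1.69e-15). It rose 1.84-fold in DKO MEFs (log2 fold change 0.88, standard error 0.03, edgeR adjusted p = 1.53e-13). The response in DKO MEFs was smaller by -0.27 on the log2 scale (95% interval -0.37 to -0.17, edgeR adjusted p = 0.000108), and lay between -0.33 and -0.16 over the alternative settings, with the call kept. The genotypes differed more than the treatments, with Ddit4 2.69-fold lower in DKO MEFs in control (log2 fold change -1.43, standard error 0.03, edgeR adjusted p = 2.76e-16). After etoposide it was 3.24-fold lower (log2 fold change -1.70, standard error 0.03, edgeR adjusted p = 3.85e-17).

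The promoter window of Ddit4 from RefSeq (chr10:59951721-59952020, minus strand, GRCm38.p6) is printed because this gene moved most in every comparison except the interaction.
Ddit4: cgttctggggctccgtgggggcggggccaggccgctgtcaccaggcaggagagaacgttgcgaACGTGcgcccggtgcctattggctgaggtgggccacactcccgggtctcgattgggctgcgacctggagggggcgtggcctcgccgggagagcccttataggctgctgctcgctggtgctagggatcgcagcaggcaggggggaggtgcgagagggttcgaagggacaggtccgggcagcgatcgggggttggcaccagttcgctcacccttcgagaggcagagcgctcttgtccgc
Capitals mark 1 match to the hypoxia element, 187 bases before the start, and the other motifs named for Sesn1 had no match in these letters. The windows of Sesn2 (chr4:132510407-132510706, minus strand) and Sesn3 (chr9:14276051-14276350, plus strand) held none of them.

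**Figure D1:**
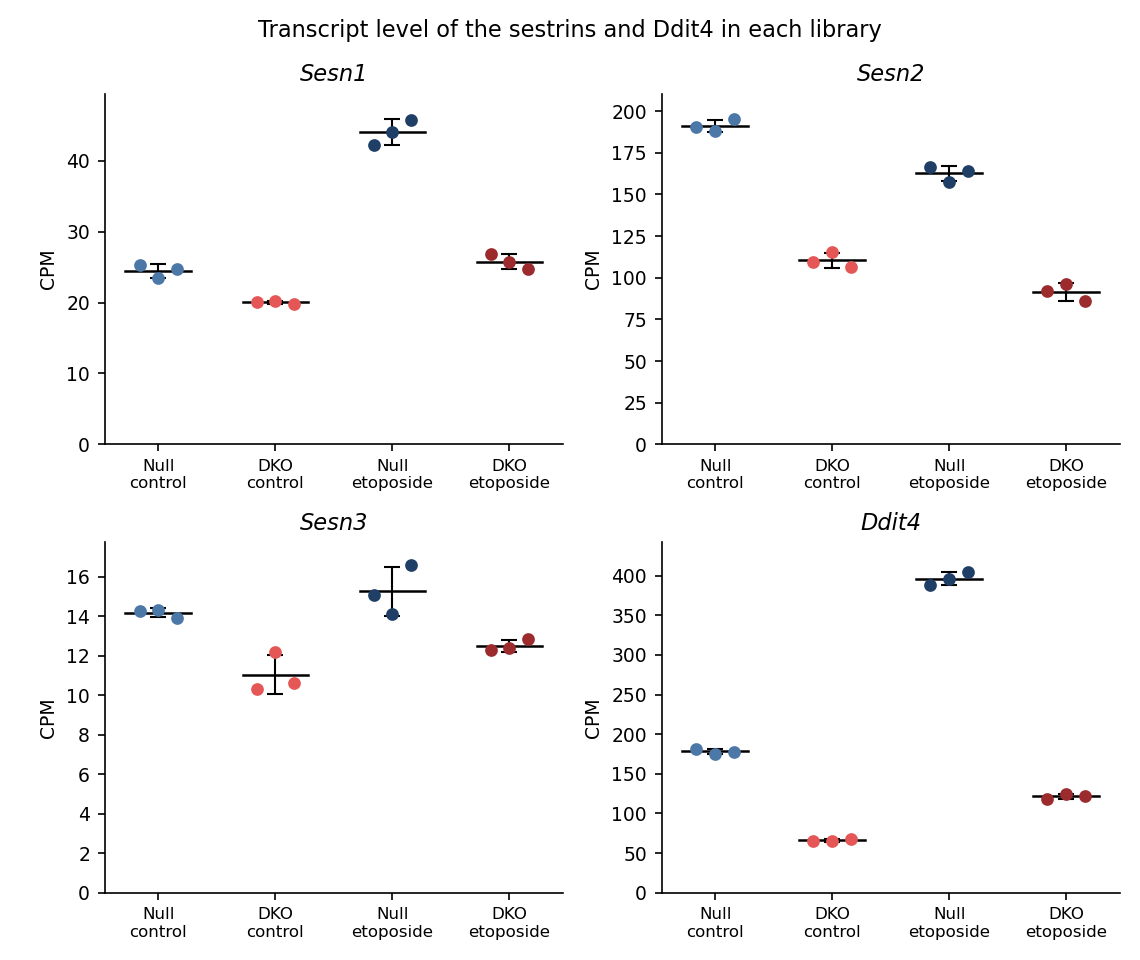
Level of Sesn1, Sesn2, Sesn3 and Ddit4 in CPM (vertical axes, linear from 0) in the 4 groups. Points are libraries, wide bars are means and whiskers are 1 SD of 3 libraries. Ddit4 in Null etoposide lies between 388 and 404 CPM, above every other group, and the highest DKO library of Sesn2, at 115 CPM, is below its lowest Null library, at 158 CPM.

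In Null MEFs etoposide thus raised Ddit4 and Sesn1 under every setting, while the fall of Sesn2 was lost with library size alone and Sesn3, short of the threshold here, passed it in the settings named above. Counted against all genes, 2 of the 4 were higher where 42.3% of the 15220 genes tested were higher, and 1 of the 4 was lower where 37.2% were lower. The count of calls is thus near that of the other genes. The log2 fold change of Ddit4 exceeded that of 78.7% of the genes tested and that of Sesn1 exceeded 74.4%. Sesn2 lay above 33.7% of them and Sesn3 above 51.9%. Scaling by library size alone shifted the median of all genes by 0.168 on the log2 scale and turned the split of 6435 higher and 5656 lower genes into 7806 and 4396.

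In DKO MEFs etoposide raised Ddit4 and Sesn1 by less than in Null MEFs and lowered Sesn2 with TMM scaling, a fall that was absent with library size alone. With these unstable calls of Sesn2 and Sesn3, 3 of the 4 genes were higher where 43.7% of all genes tested were higher, and 1 was lower where 31.5% were lower. Ddit4 lay above 77.5% of the genes tested, Sesn1 above 62.9%, Sesn3 above 52.6% and Sesn2 above 26.5%. Library size alone moved the median of all genes by 0.273 in this comparison, and the split of 6645 higher and 4790 lower genes became 9316 and 3004.

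Between the untreated genotypes all 4 genes were lower in DKO MEFs and none was higher. Across all genes tested 33.4% were lower and 33.3% higher in this comparison. The position of Ddit4 was the most extreme, with 11.95% of the genes tested below it, followed by Sesn2 with 17.4%, Sesn3 with 29.4% and Sesn1 with 32.4%. All 4 stayed lower and past the threshold under each of the 15 alternatives run for this comparison. Library size alone moved the median of all genes by -0.117 here and the split from 5066 higher and 5091 lower genes to 3977 and 6393.

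After etoposide all 4 genes were again lower in DKO MEFs and none was higher, against 36.6% lower and 37.5% higher among all genes tested. Ddit4 had 11.2% of the genes tested below it, Sesn2 20.6%, Sesn1 21.6% and Sesn3 35.5%. Sesn1 stood at -0.29 in control and -0.78 after etoposide, so that it moved from the smallest of the 4 differences to about the size of that of Sesn2. The direction and call of all 4 were kept under each of the 15 alternatives run.

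The response to etoposide differed between genotypes for Sesn1 and Ddit4, and in both it was smaller in DKO MEFs. This makes 2 of the 4 genes lower and none higher in the interaction, where 24.4% of all genes tested were lower and 29.6% higher. Sesn1 had 23.3% of the genes tested below it and Ddit4 31.0%. Each comparison shares a group of libraries with another, so the differences given side by side are not independent. Library size alone moved the median of all genes by 0.104 here and the split from 4507 higher and 3719 lower genes to 5734 and 3055.

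**Figure D2:**
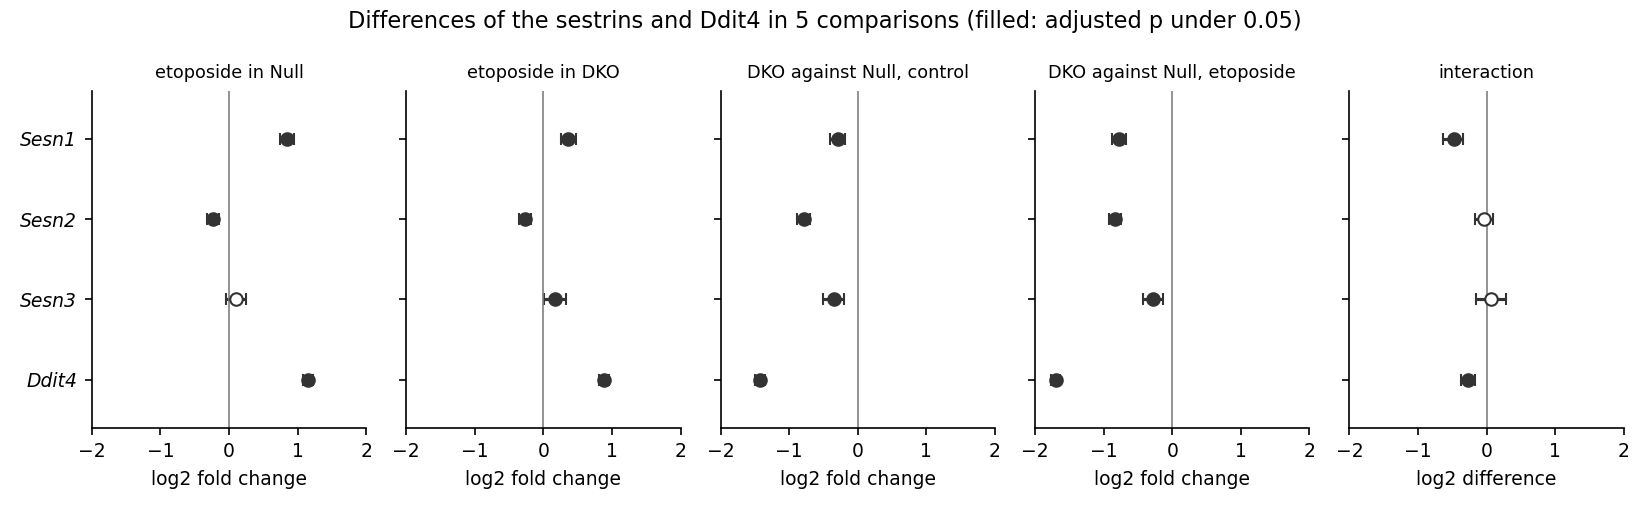
Log2 fold change of each gene (horizontal axes) in the 4 comparisons between groups, and the log2 difference between the responses in the interaction. Points are estimates from edgeR, whiskers are 95% intervals, and filled points have an adjusted p under 0.05. Ddit4 runs from -1.70 to 1.15, and all 4 genes lie to the left of 0 in both comparisons of DKO against Null.

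**Figure D3:**
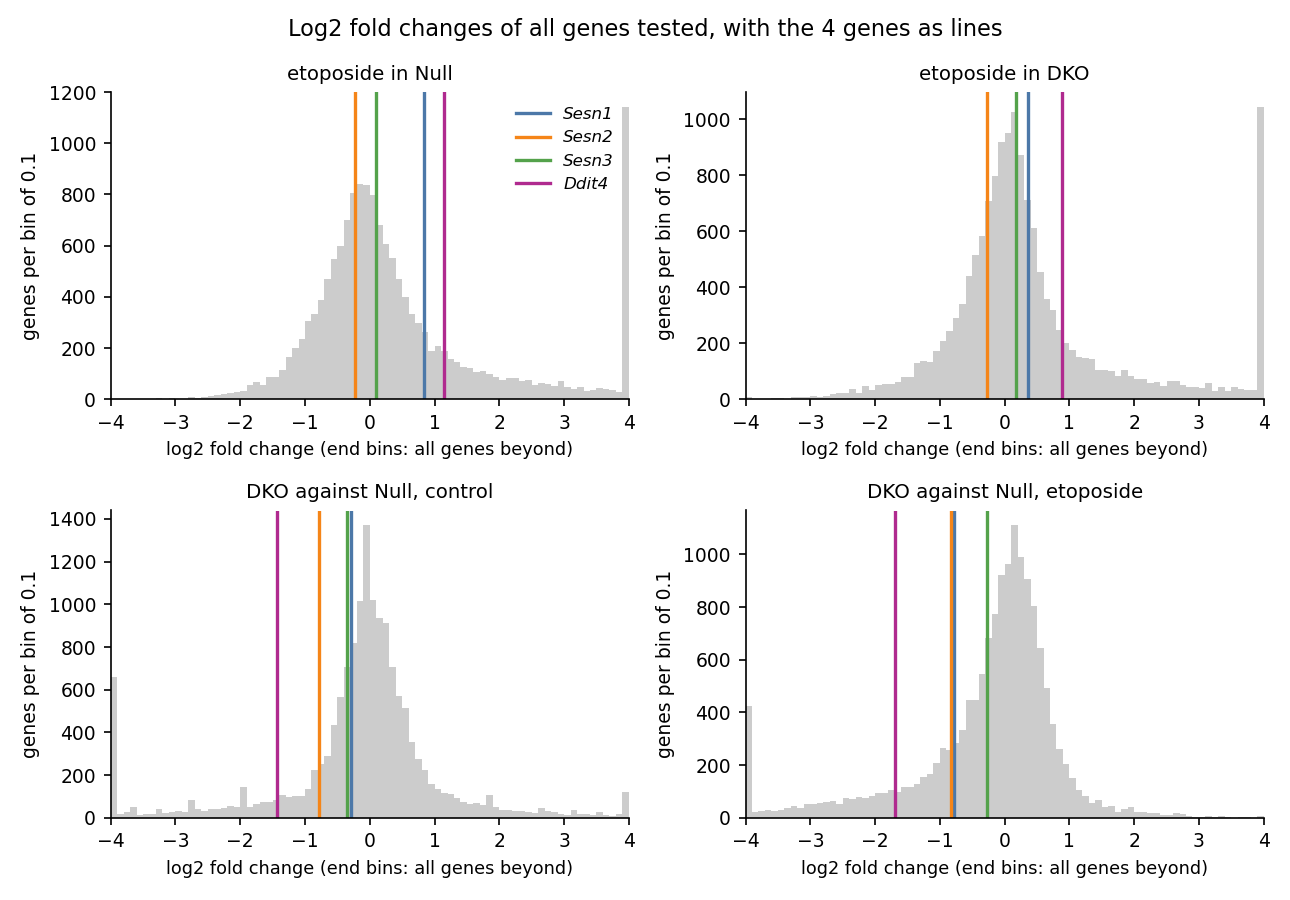
Number of genes (vertical axes) by log2 fold change in bins of 0.1 (horizontal axes) for the 15220 genes tested, with lines at the values of the 4 genes. The first and last bin of each panel also hold the genes beyond the axis. In the control comparison of the genotypes the line of Ddit4, at -1.43, has 11.95% of genes to its left.

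To compare levels between genes, CPM was divided by the summed exon length in kb. On this scale Ddit4 came first in Null control, at 102 ± 1.87 CPM per kb (SD, n = 3). Sesn2 followed at 55.1 ± 1.01, Sesn1 at 6.15 ± 0.2502 and Sesn3 at 0.928 ± 0.0146 CPM per kb (SD, n = 3 each). The same order held in all 4 groups, with no overlap between neighbours, and was also the order when the longest transcript was used as the length. Ddit4 and Sesn2 stood closest in DKO control, at 37.7 ± 0.987 and 31.8 ± 1.29 CPM per kb. They stood furthest apart in Null etoposide, where Ddit4 was at 226 ± 4.64 and Sesn2 at 46.8 ± 1.34 CPM per kb. In DKO etoposide Ddit4 was at 69.5 ± 1.81 and Sesn2 at 26.3 ± 1.52 CPM per kb. Among 15059 genes with a length, the level of Ddit4 in Null etoposide was higher than that of 99.0% of them and its level in DKO control higher than that of 89.7%. The level of Sesn3 was above that of 28.1 to 30.4% of the genes in any group.

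Across groups, the order of levels in TMM-scaled CPM differed from gene to gene. For Sesn2 it was Null control, Null etoposide, DKO control and DKO etoposide, each apart from the next. For Ddit4 it was Null etoposide, Null control, DKO etoposide and DKO control, again each apart from the next. For Sesn1 the levels of DKO etoposide, 25.8 ± 1.03 CPM, and Null control, 24.5 ± 0.996 CPM, were within their spread (SD, n = 3 each). For Sesn3 the neighbours Null etoposide, 15.3 ± 1.24 CPM, and Null control, 14.2 ± 0.223 CPM, overlapped (SD, n = 3 each). With library size alone these overlaps of Sesn1 and Sesn3 were gone, Sesn2 overlapped between DKO etoposide (91.8 to 103) and DKO control (95.3 to 102), and Sesn3 overlapped between Null control and DKO etoposide. The order of Ddit4 was the same with either scaling.

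Summed per kb, the 3 sestrins stood at 62.1, 61.0 and 63.3 CPM per kb in Null control and at 59.5, 57.3 and 59.8 in Null etoposide. In DKO MEFs the sum was 37.2, 39.1 and 36.4 in control and 34.0, 35.0 and 31.8 in etoposide. The sum was 1.65-fold lower in DKO than in Null MEFs in control and 1.75-fold lower after etoposide, and followed Sesn2, which made up most of it. Sesn1 supplied 10.2, 9.64 and 9.82% of it in Null control and 17.8, 19.3 and 19.2% in Null etoposide. In DKO MEFs Sesn1 supplied 13.5, 12.97 and 13.7% in control and 19.8, 18.4 and 19.6% in etoposide. The share of Sesn1 was therefore higher after etoposide in both genotypes with no overlap, and the genotypes overlapped after etoposide (two-sided exact permutation test of 3 libraries against 3, p = 0.5). With 3 libraries a group this exact test cannot give a p below 0.1, the value reached by each of the 3 other comparisons of the Sesn1 share. Sesn2 supplied 88.6 ± 0.310% in Null control, 79.5 ± 0.885% in Null etoposide, 84.7 ± 0.294% in DKO control and 78.3 ± 0.844% in DKO etoposide (SD, n = 3 each). Sesn3 supplied between 1.44 and 2.64% in every library by summed exon length. Sesn3 was at 0.928 CPM per kb in Null control by this length and 1.55 by the longest transcript, with which shares were not computed. Its share was 1.49 ± 0.0498% in Null control, 1.70 ± 0.107% in Null etoposide, 1.92 ± 0.111% in DKO control and 2.44 ± 0.177% in DKO etoposide (SD, n = 3 each). It did not overlap in any comparison between treatments or genotypes. A share within a library does not depend on how the libraries were scaled to each other.

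**Figure D4:**
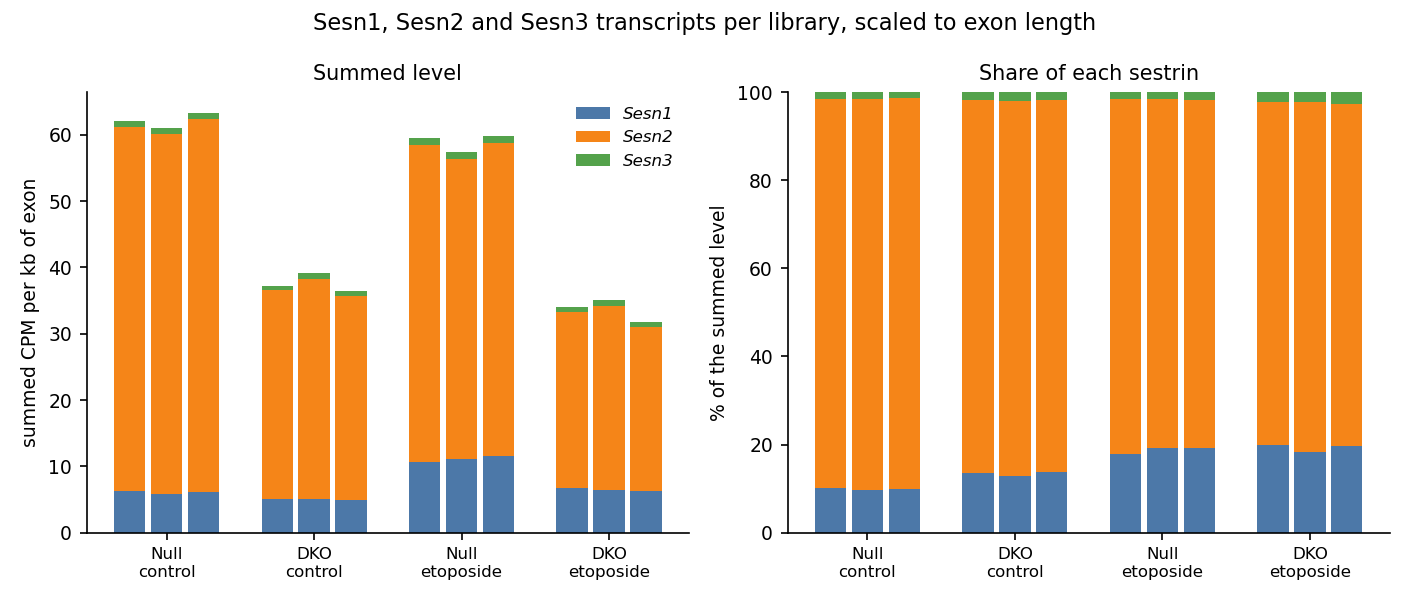
Left, summed level of the 3 sestrins in CPM per kb of exon in each of the 12 libraries (bars, from 0), split by gene. Right, the share of each sestrin in % of that sum. The bars of DKO MEFs end between 31.8 and 39.1 CPM per kb, those of Null MEFs between 57.3 and 63.3, and the Sesn1 part is larger in the etoposide libraries of both genotypes.

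Ddit4l, the paralogue of Ddit4 whose product REDD2 also inhibits mTORC1, had 15 to 68 counts per control library. It was at 0.836, 0.415 and 0.448 CPM in Null control and 0.226, 0.228 and 0.419 CPM in DKO control. After etoposide it was at 60.0, 60.2 and 60.7 CPM in Null MEFs and 9.63, 11.8 and 9.99 CPM in DKO MEFs. The control groups overlapped, and after etoposide every DKO library was far below every Null library. In control Ddit4l had 68 counts in Null replicate 1 and 27 and 29 in replicates 2 and 3. Its log2 fold change there in DKO against Null was -1.06 (standard error 0.34, edgeR adjusted p = 0.0104), from these few counts. Its log2 fold change with etoposide was 6.68 in Null MEFs (standard error 0.13, edgeR adjusted p = 1.41e-17) and 5.22 in DKO MEFs (standard error 0.18, edgeR adjusted p = 3.70e-14). Per kb, Ddit4l at 20.7 ± 0.134 CPM in Null etoposide was still far below Ddit4. After etoposide it was 5.74-fold lower in DKO MEFs (log2 fold change -2.52, standard error 0.08, edgeR adjusted p = 1.89e-14), and its response differed by -1.46 (standard error 0.38, edgeR adjusted p = 0.00368).

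The genes with the most similar pattern were found by the root mean square difference of log2 CPM, centred on each gene's mean, over the 12 libraries and among the 9352 genes that averaged 10 CPM or more. For Sesn1 they were Rab40c, Oard1 and Gsto1, at differences of 0.06, 0.07 and 0.07, against a spread of 0.42 of Sesn1 about its own mean. For Sesn2 they were Sec24c, Unk and Adam15, at 0.07, 0.08 and 0.08 against a spread of 0.43. For Sesn3 they were Mrpl28, Prpf19 and Ndufv1, each at 0.07 against a spread of 0.19. For Ddit4 they were Top1mt, Calhm2 and Bloc1s2, at 0.14, 0.14 and 0.15 against a spread of 0.94. None of the 4 genes was among those nearest to another of the 4, and any gene not picked is further away by the way the nearest were picked. Within the 4, Sesn1 and Sesn3 were the nearest pair, at 0.30, and Sesn3 and Ddit4 the furthest, at 0.77. Sesn1 differed from Sesn2 by 0.47, more than its own spread.

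The genes through which sestrins act were read next. Counts in this and the later lists stand against all genes tested, of which 42.3% were higher and 37.2% lower with etoposide in Null MEFs and 43.7% higher and 31.5% lower in DKO MEFs. In DKO against Null the shares of all genes were 33.3% higher and 33.4% lower in control and 37.5% higher and 36.6% lower after etoposide. Of 8 genes of the GATOR1 and GATOR2 complexes, 2 were higher and 5 lower with etoposide in Null MEFs, and 3 were higher and 2 lower in DKO MEFs. Mios, a GATOR2 subunit, fell by 0.88 on the log2 scale in Null MEFs (standard error 0.05), while its value in DKO MEFs was 0.05 (edgeR adjusted p = 0.34) and the difference between the responses 0.93 (edgeR adjusted p = 1.90e-09). Wdr24, another GATOR2 subunit, rose by 0.89 and 1.05 in Null and DKO MEFs (standard error 0.05 each). Against Null, 1 of the 8 was higher and 3 were lower in DKO control, and 7 were higher and 1 lower in DKO etoposide, where DESeq2 gave 4 higher. Wdr59 of GATOR2 was higher by 0.66 there (standard error 0.06) and Nprl3 of GATOR1 lower, at -0.52 (standard error 0.06).

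Among 8 genes of KICSTOR, which anchors GATOR1 at the lysosome, and of other amino acid sensors, 3 were higher and 4 lower with etoposide in Null MEFs and 6 higher and 1 lower in DKO MEFs. Castor1 (listed as Gatsl3), the arginine sensor that binds GATOR2 as sestrins do, had a log2 fold change of 2.16 in Null MEFs (standard error 0.08). In DKO MEFs it was 0.25 (edgeR adjusted p = 0.00802), and the responses differed by -1.91 (standard error 0.11, edgeR adjusted p = 1.55e-10). For DKO against Null MEFs, 2 of the 8 were higher and 4 lower in control, and 5 were higher and 3 lower after etoposide. Castor2 (listed as Gatsl2) was higher in DKO MEFs under both conditions, by 0.92 and 0.97 (standard error 0.11 each).

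Of 13 genes of the Rag GTPases, Ragulator and folliculin, 4 were higher and 6 lower with etoposide in Null MEFs and 6 higher (11 with library size alone) and 2 lower in DKO MEFs. Between genotypes (DKO against Null), 7 were higher and 5 lower in control, and 10 were higher and 3 lower after etoposide. Rragd, which encodes RagD, was at 4.04 CPM in Null control and 0.0937 CPM in DKO control on average, a log2 fold change of -5.37 (standard error 0.23). After etoposide its log2 fold change was -3.24 (standard error 0.13), and its responses differed by 2.13 (standard error 0.37, edgeR adjusted p = 0.000109). Rragb went the other way, with 2.75 in control and 2.62 after etoposide (standard errors 0.09 and 0.07).

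Downstream of Ddit4, 3 of 5 genes of the TSC complex and Rheb were higher and 2 lower with etoposide in Null MEFs, and 2 were higher and 1 lower in DKO MEFs. Tsc1 rose by 0.51 and 0.70 (standard error 0.04 each) and Rheb fell by 0.80 and 0.49 (standard error 0.04 each) in Null and DKO MEFs. In DKO against Null 1 of the 5, Rheb, was higher and the other 4 were lower in control, and 1 was higher and 2 lower after etoposide. Tsc2 was lower by -0.63 in control and -0.47 after etoposide (standard error 0.04 each).

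Of 9 genes for mTOR complex subunits, none was higher and 8 were lower with etoposide in Null MEFs, with a median of -0.81 where the median of all genes tested was 0.07. In DKO MEFs 2 were higher and 6 lower, with a median of -0.33 against 0.14. Rptor, which encodes the mTORC1 scaffold Raptor, differed in response by 0.75 (standard error 0.08, edgeR adjusted p = 7.98e-07) and Rictor of mTORC2 by 0.76 (standard error 0.05, edgeR adjusted p = 2.32e-09). Between genotypes (DKO against Null), 1 was higher and 6 lower in control, and 2 were higher and 3 lower after etoposide.

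Of 8 genes for mTORC1 substrates, 3 were higher and 5 lower with etoposide in Null MEFs and 2 higher and 3 lower in DKO MEFs. Ulk1, the autophagy kinase, rose by 2.49 in Null MEFs (standard error 0.07) and 0.90 in DKO MEFs (standard error 0.06), a difference in response of -1.59 (edgeR adjusted p = 1.22e-10). Lpin1, a regulator of lipid synthesis, rose by 2.33 in Null MEFs (standard error 0.06), its value in DKO MEFs was -0.10 (edgeR adjusted p = 0.158), and the difference was -2.43 (edgeR adjusted p = 4.40e-13). In the interaction 5 of the 8 were higher and 2 lower, where 29.6% of all genes tested were higher and 24.4% lower. Ulk1 and Lpin1 were the 2 lower ones, while Grb10 was at 1.09 and Larp1 at 1.04 (standard error 0.07 each). For DKO against Null MEFs, 4 of the 8 were higher and 3 lower in control, and 2 were higher and 3 lower after etoposide. Of 10 AMPK and LKB1 genes, a pathway that sestrins are also reported to engage, 4 were higher and 5 lower with etoposide in Null MEFs and 2 higher and 4 lower in DKO MEFs. In DKO against Null 4 of the 10 were higher and 4 lower in control, and 3 were higher and 5 lower after etoposide. Prkaa2, a catalytic subunit of AMPK, rose by 1.97 in Null MEFs (standard error 0.09) and 0.31 in DKO MEFs (standard error 0.08).

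Known regulators of the sestrins and Ddit4 and their other targets were read as values only, and whether any of them caused the changes of the 4 genes was not tested. Trp53 itself moved little, with log2 fold changes of 0.24 and 0.21 with etoposide in Null and DKO MEFs and of -0.26 and -0.28 in DKO against Null in control and after etoposide (standard error 0.04 each). Of 30 other p53 targets, 28 were higher and 2 lower with etoposide in Null MEFs, with a median of 2.10, and 25 were higher and 3 lower in DKO MEFs, with a median of 0.99. For DKO against Null MEFs, 13 were higher and 15 lower in control, with a median of -0.16, and 3 were higher and 27 lower after etoposide, with a median of -0.98. Trp53inp1, a p53 cofactor, rose by 5.87 and 4.70 in Null and DKO MEFs (standard error 0.08 each). Plk3, a stress kinase, was 1 of the 2 that fell in Null MEFs, at -0.98 (standard error 0.05).

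Atf4, the integrated stress response factor known to drive Sesn2 and Ddit4, fell from 1477 ± 24.6 to 633 ± 15.5 CPM with etoposide in Null MEFs and from 1161 ± 9.35 to 578 ± 21.96 CPM in DKO MEFs (SD, n = 3 each). The log2 fold changes were -1.22 and -1.01 (standard error 0.03 each). Ddit3, which encodes CHOP, fell by 1.73 and 1.61 (standard error 0.04 each). Of 24 genes of the ATF4 and CHOP branch, 5 were higher and 17 lower with etoposide in Null MEFs and 11 higher and 12 lower in DKO MEFs. Chac1, a glutathione-degrading enzyme, fell by 2.63 and 2.21 (standard error 0.06 each), while Cth rose by 1.39 and 2.27 (standard error 0.05 each). Between genotypes (DKO against Null), 10 of the 24 were higher and 11 lower in control, and 19 were higher and 3 lower after etoposide.

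Hif1a had log2 fold changes with etoposide of -0.17 and -0.50 in Null and DKO MEFs (standard error 0.03 each). Of 16 HIF and hypoxia genes, 3 were higher and 11 lower in Null MEFs and 5 higher and 8 lower in DKO MEFs. Vegfa fell by 1.84 and 2.67 (standard error 0.04 each), while Egln3 rose by 2.09 and 0.31 (standard errors 0.10 and 0.11). In DKO against Null 7 were higher and 4 lower in control, and 7 were higher and 7 lower after etoposide. Nr3c1, the glucocorticoid receptor, had log2 fold changes of -0.38 and -0.35 with etoposide and of -0.59 and -0.57 in DKO against Null (standard error 0.04 each). Of 7 tested genes of 8 in its list, 1 was higher and 6 lower with etoposide in Null MEFs and 1 higher and 5 lower in DKO MEFs. The one that rose in both was Dusp1, a phosphatase of MAP kinases, at 2.94 and 1.58 (standard error 0.05 each). Between genotypes (DKO against Null), 3 were higher and 4 lower in control, and 4 were higher and 3 lower after etoposide.

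Nfe2l2, which encodes NRF2, had log2 fold changes of -0.52 and -0.55 with etoposide in Null and DKO MEFs (standard error 0.04 each). Of 10 NRF2 genes, 5 were higher and 2 lower in Null MEFs and 6 higher and 3 lower in DKO MEFs. For DKO against Null MEFs, 3 were higher and 5 lower both in control and after etoposide, with Nqo1, an oxidoreductase, at -0.98 and -1.50 (standard error 0.05 each). Foxo1 was at 40.1 ± 0.226 CPM in Null control and 164 ± 3.62 CPM in DKO control, and at 32.8 ± 1.10 and 32.2 ± 2.05 CPM after etoposide (SD, n = 3 each). Foxo3 had a log2 fold change of 0.66 with etoposide in Null MEFs (standard error 0.05) and -0.01 in DKO MEFs (edgeR adjusted p = 0.922, against 0.27 and 0.00057 with library size alone), a difference in response of -0.66 (edgeR adjusted p = 1.70e-06). Of 12 FOXO genes, 6 were higher and 6 lower with etoposide in Null MEFs and 3 higher (8 with library size alone) and 5 lower in DKO MEFs. In DKO against Null 7 were higher and 4 lower in control, and 2 were higher and 6 lower after etoposide.

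**Figure D5:**
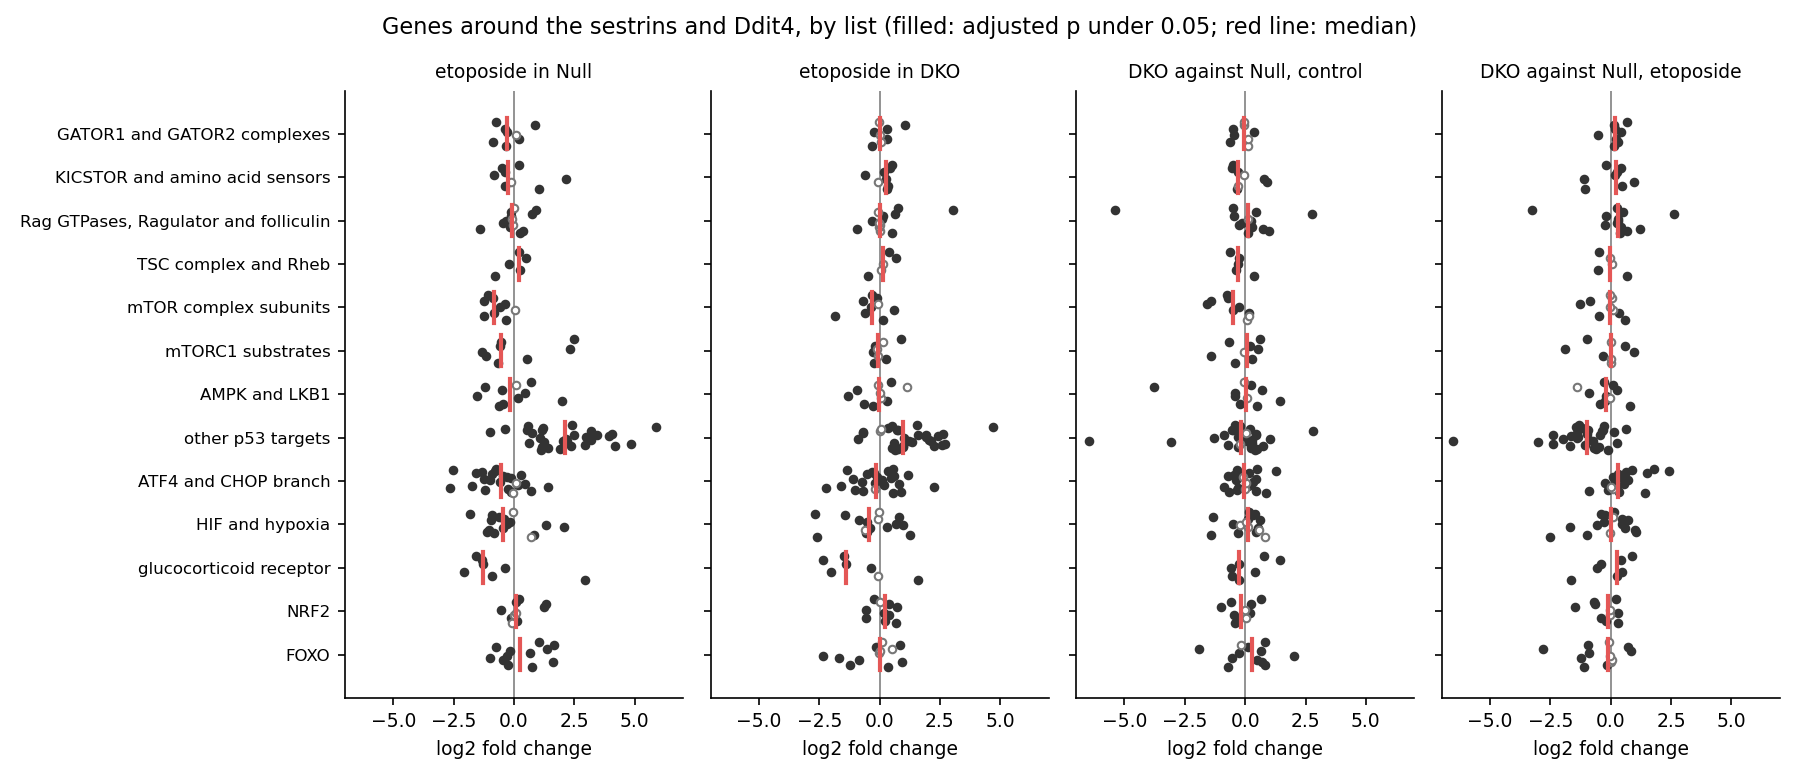
Log2 fold change (horizontal axes) of each tested gene of the 13 lists (rows) in the 4 comparisons between groups. Filled points have an edgeR adjusted p under 0.05, open points do not, and red lines are list medians. For other p53 targets the median is 2.10 with etoposide in Null MEFs and 0.99 in DKO MEFs.

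Markers were read to check the labelled cell type. All 15 fibroblast markers were tested, and Vim was the most abundant, at a mean of 1879.8 CPM. Their summed level was 7797 CPM in Null control, 12944 in DKO control, 4195 in Null etoposide and 5532 in DKO etoposide on average. The summed level of 6 epithelial markers was 2.60, 5.36, 3.76 and 2.25 CPM in the same order of groups (most abundant Krt8). For 5 endothelial markers it was 0.130, 0.133, 2.63 and 1.12 CPM (Tek). For 6 blood and macrophage markers it was 2.00, 2.14, 14.2 and 4.31 CPM (Cd68). For 5 muscle markers it was 2.23, 0.404, 39.4 and 5.13 CPM (Des). With etoposide the fibroblast sum was lower, and the blood, endothelial and muscle sums were higher, in both genotypes, and their part in the changes of the sestrins and Ddit4 was not tested.

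Each genotype is represented by 1 cell line, so a difference between genotypes cannot be told apart from a difference between lines. The paper states that SV40 immortalization of its MEFs can affect the stability of p53, and its part in these values was not tested. Nothing in the sources used here says that the 3 replicates of a group came from separate cultures, and the p-values then measure the spread between these libraries, which may be technical. RNA was taken from whole cultures, in which fewer cells holding a transcript and less transcript per cell cannot be told apart. Transcript levels say nothing of the amount or activity of the sestrin and REDD1 proteins or of mTORC1, none of which was measured here. A single dose and time of etoposide were sampled, so earlier or later changes of the 4 genes were not seen.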

How the data were processed

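The authors deposited raw counts per gene, without normalization. Per the paper's methods, adapters were trimmed with Cutadapt where required, read pairs of ribosome-depleted stranded libraries were aligned with HISAT2, and unique pairs were counted with HTSeq on GENCODE genes. The submitters' processing notes name HISAT2, featureCounts and mm10, and the strand setting is not given in the sources used here. None of the 4 genes has exons that overlap another gene in GENCODE M21. The 5 summary lines, for reads on no feature (20.2 to 27.3% of a library), reads placed more than once (15.9 to 20.5%) and ambiguous reads (0.428 to 0.513%) among others, were left out. The share on no feature differed by group without overlap. It was 22.5 to 24.2% in Null control, 25.1 to 27.3% in Null etoposide, 20.2 to 21.1% in DKO control and 21.2 to 22.3% in DKO etoposide. Its part in the differences between groups was not tested. Counting on exons leaves out intron reads and sums a gene's transcripts.

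Genes kept by filterByExpr were scaled by TMM and fitted in edgeR 4.0.16 (R 4.3.3) with glmQLFit in 1 model of 12 libraries, and glmQLFTest was run on 5 contrasts, taking 0.05 as the limit for p adjusted after Benjamini and Hochberg. The study used limma-trend, run here as an alternative (limma 3.58.1), with DESeq2 1.42.0, other scalings and filters, a replicate block, 6 libraries alone and each library left out. A legacy fit of edgeR was added after seeing the data. The fits were tested on simulated data in which few genes changed, so that test does not bear on the choice of scaling here. Replicates differed by more than counting noise alone, at 11.1 to 23.0 for chi-square over its degrees of freedom. The smallest library held 45577023 counts, with 606 for Sesn3. Exact tests used scipy 1.17.1.

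Genes were named by rule: the 4 genes, Ddit4l, the knockout targets, the factors at the head of the lists, for each list and comparison up to 2 rises and 2 falls past that limit that averaged 1 CPM or more, and the 3 most similar genes. For the lists, the text prints only part of the genes that this rule gives. There were 13 pathway lists with 161 genes and 5 marker lists. The genes and lists were chosen with earlier results of these data known. The older symbol of Bmt2 in its list was corrected after the files were read. Promoter sequences are from RefSeq, in which 4 of the 4 genes matched.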

Additional observations from a re-analysis of the deposited data

Results flagged for a closer look

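The response to etoposide differed between DKO and Null MEFs by a test of the difference itself (the interaction term in edgeR, adjusted over all genes) for 2 of the 4 genes, both lower, where 24.4% of all genes tested were lower and 29.6% higher. The difference, DKO minus Null on the log2 scale, was -0.48 for Sesn1 (edgeR adjusted p = 1.40e-05) and -0.27 for Ddit4 (edgeR adjusted p = 0.000108). For the paralogue Ddit4l it was -1.46 (edgeR adjusted p = 0.00368). For the knockout targets it was 0.49 for Tfeb (edgeR adjusted p = 0.0195) and 0.28 for Tfe3 (edgeR adjusted p = 0.000697).

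Among regulators, the difference was 0.22 for Atf4 (edgeR adjusted p = 0.000814) and -0.33 for Hif1a (edgeR adjusted p = 7.78e-06). It was -2.06 for Foxo1 (edgeR adjusted p = 6.34e-14) and -0.66 for Foxo3 (edgeR adjusted p = 1.70e-06). The difference did not pass the threshold for Trp53 (-0.02, edgeR adjusted p = 0.786), Nr3c1 (0.02, edgeR adjusted p = 0.77), Nfe2l2 (-0.03, edgeR adjusted p = 0.759) and Ddit3 (0.12, edgeR adjusted p = 0.117, though it passed with library size alone), nor for Sesn2 (-0.04, edgeR adjusted p = 0.611) and Sesn3 (0.07, edgeR adjusted p = 0.606). Among genes of the mTORC1 pathway it was -1.91 for Castor1, 0.93 for Mios and 0.95 for Lars. For Rragd, at only 0.0937 CPM on average in DKO control, it was 2.13 (edgeR adjusted p = 0.000109). It was 0.75 for Rptor and 0.76 for Rictor. Among mTORC1 substrates it was -1.59 for Ulk1, -2.43 for Lpin1, 1.09 for Grb10 and 1.04 for Larp1. Higher and lower genes by list were 3 and 0 of 8 for GATOR and 3 and 2 of 8 for KICSTOR and sensors. They were 8 and 1 of 13 for the Rag list and 4 and 0 of 5 for TSC and Rheb. They were 7 and 1 of 9 for mTOR complexes, 5 and 2 of 8 for mTORC1 substrates and 2 and 5 of 10 for AMPK and LKB1. For the lists of regulators they were 3 and 21 of 30 for other p53 targets and 18 and 3 of 24 for the ATF4 and CHOP branch. They were 5 and 5 of 16 for HIF and hypoxia and 1 and 2 of 7 for the glucocorticoid receptor. They were 2 and 4 of 10 for NRF2 and 1 and 10 of 12 for FOXO. All genes tested were at 29.6% and 24.4%.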

How the results depend on the processing

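Of the values of the 4 genes under alternative settings, 305 kept direction and call, 12 lost the call, 2 gained it and 1 turned its sign without a call. The etoposide effect on Sesn3 in DKO MEFs (0.17, edgeR adjusted p = 0.0467) lost its call with DESeq2 (0.16), DESeq2's size factors (0.16), no filter (0.13), the replicate block (0.17) and only the 6 libraries (0.14), lay between 0.10 and 0.23 with 1 library left out, and reached 0.45 with library size alone. In Null MEFs the Sesn3 effect passed the threshold with library size alone (0.27) and with a mean of at least 1 CPM (0.19). Library size alone ended the call of Sesn2 with etoposide in Null (-0.07) and DKO MEFs (-0.00) and turned its interaction to 0.07, without a call. It also gave 3004 lower genes with etoposide in DKO MEFs against 4790. Among other genes it turned, with etoposide, Gsr to 0.03 in Null MEFs, and Foxo3 to 0.27 (edgeR adjusted p = 0.00057), Sec13 to 0.04, Larp1 to 0.00 and Eif4ebp1 to 0.06 in DKO MEFs, and, between control genotypes, Ddit3 to -0.00 and Hif1a to -0.08 (edgeR adjusted p = 0.0394). Other named genes kept direction and call in 4515 values, lost the call in 46, gained it in 3 and turned their sign without a call in 19. Counts of higher or lower genes in the lists changed more than 1.5-fold, or to or from 0, in 73 values against 2007 that did not, most often with library size alone. With it, the genes higher with etoposide in DKO MEFs went from 6 to 11 for the Rag list and from 3 to 8 for the FOXO list, and with DESeq2 the 7 higher GATOR genes in DKO against Null after etoposide became 4. The cause of these changes was not tested. Without division by length the sestrin shares of Sesn1, Sesn2 and Sesn3 were 10.7, 83.2 and 6.16% in Null control, 14.2, 78.1 and 7.79% in DKO control, 19.9, 73.3 and 6.87% in Null etoposide, and 70.5 and 9.64% for Sesn2 and Sesn3 in DKO etoposide. Whether replicate numbers pair the libraries could not be settled with 3 libraries a group. Correlations of same-numbered deviations lay between -0.032 and 0.0429 in 18 pairs, and 7 of 12 libraries correlated best with their own number. With the replicate block, 12111 genes passed with etoposide in Null MEFs against 12091. The etoposide effect on Sesn1 in DKO MEFs reached 0.63 and the interaction of Ddit4 -0.16 with library size alone, both with their calls kept. The legacy fit, chosen after seeing the data, kept every call of the 4 genes. The low counts of Ddit4l in control, and of Rragd in DKO control, limit their fold changes.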
